A study of Mus musculus with 6 samples.

Results

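The 10 genes described here encode the core of 2 gene-silencing systems in a mouse mammary carcinoma line, the DNA methylation machinery (Dnmt1, Dnmt3a, Dnmt3b, Uhrf1, Tet1, Tet2 and Tet3) and the Polycomb repressive complex 2 (PRC2; Ezh2, Eed and Suz12). They were taken by name from the 53465 genes of the deposited table of estimated counts. All 10 were measured, and all 10 passed the low-count filter into the 13550 genes tested. Whole-transcriptome RNA sequencing compared 3 libraries of parental 4T1 cells (P) with 3 libraries of axitinib-resistant 4T1 cells (AxR). 4T1 is a transplantable mammary carcinoma line, and axitinib is a kinase inhibitor directed mainly at the VEGF receptors. AxR cells were recovered from metastatic lesions in mice whose primary tumor had been removed and which received 100 mg/kg axitinib daily, and were then kept in culture with 0.5 μM axitinib for over 2 months. P cells carry no treatment in their own labels, although the growth description shared by all 6 samples names 0.5 μM axitinib for both lines.

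AxR is 1 resistant line and P is 1 parental line, so line, passage in mice, selection and drug in the medium cannot be told apart. The labels do not say whether the 3 libraries of a line came from separate cultures, and p-values therefore measure only the spread between these libraries, which may be technical. The libraries held between 15495260 and 17294525 estimated counts. For every pair of libraries within a line the chi-square per degree of freedom was between 5.03 and 19.4, above sampling noise, so none was counted as a duplicate. Epithelial markers fitted the label of a carcinoma line. The 5 markers Epcam, Cdh1, Krt8, Krt18 and Krt19 summed to between 1542 and 1704 CPM (counts scaled to library size) in P libraries and between 2317 and 2405 CPM in AxR libraries. Krt19 alone of the 5 was lower in AxR cells. The summed level of 6 leukocyte markers lay between 0.0652 and 0.365 CPM in P and between 0.128 and 0.284 CPM in AxR libraries. Endothelial markers (5 genes) reached at most 0.635 CPM and fibroblast markers (6 genes) at most 1.02 CPM, and no gene of these 3 lists passed the low-count filter.

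DNA methylation in mammals is placed on cytosines of CG dinucleotides (CpG) by the de novo enzymes DNMT3A and DNMT3B and is copied to the new strand after replication by DNMT1, which UHRF1 guides to hemimethylated sites. TET enzymes oxidize the methyl group, the first step of its removal. PRC2 methylates lysine 27 of histone H3 through its catalytic subunit EZH2, which is active only together with EED and SUZ12, and PRC1 complexes bind or act beside that mark. Both systems keep genes off in differentiated and tumor cells, DNA methylation at many germline genes and imprinted loci and PRC2 at developmental genes with CpG-rich promoters.

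Promoter sequences of the members are shown because both systems read CpG density. The RefSeq windows, from 250 bases before to 50 bases after a transcript start on build GRCm38.p6, covered all 10 members. In 9 of the 10 genes the window richest in CpG had an observed to expected CpG ratio above 0.6, against 78.5% of the 9424 tested genes with a window. The exception was Tet3, at 0.577. Below are the 150 bases before the start, 5′ to 3′, with each CpG in capitals, for 3 members that differed between the lines and for Zfp57, the methylation partner gene with the lowest log2 fold change. Dnmt3a is at chr12:3806830-3806979 (+ strand, first of 3 windows), Dnmt3b at chr2:153649299-153649448 (+ strand), Uhrf1 at chr17:56304163-56304312 (+ strand, second of 2 windows) and Zfp57 at chr17:37001013-37001162 (+ strand, first of 3 windows).
Dnmt3a: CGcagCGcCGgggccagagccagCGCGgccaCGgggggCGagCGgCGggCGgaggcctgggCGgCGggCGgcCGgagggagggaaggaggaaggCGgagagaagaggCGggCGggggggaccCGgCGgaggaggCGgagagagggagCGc
Dnmt3b: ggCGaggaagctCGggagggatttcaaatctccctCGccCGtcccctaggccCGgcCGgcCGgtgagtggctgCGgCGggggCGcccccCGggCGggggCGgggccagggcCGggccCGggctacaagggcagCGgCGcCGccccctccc
Uhrf1: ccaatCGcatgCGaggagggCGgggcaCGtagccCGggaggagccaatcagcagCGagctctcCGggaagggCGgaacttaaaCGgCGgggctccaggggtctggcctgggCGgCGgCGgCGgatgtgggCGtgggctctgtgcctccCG
Zfp57: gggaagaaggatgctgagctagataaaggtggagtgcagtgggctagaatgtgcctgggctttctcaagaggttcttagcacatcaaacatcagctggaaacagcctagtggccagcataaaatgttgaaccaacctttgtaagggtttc
These stretches hold 21 CpG in Dnmt3a, 18 in Dnmt3b, 16 in Uhrf1 and 0 in Zfp57. Of the 2 members that rose or fell and are not shown, the stretch of Tet1 (17 CpG in its 300-base window) and that of Ezh2 (31 CpG) overlap an annotated exon.

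In AxR cells 3 of the 10 members were higher (Dnmt3a, Uhrf1 and Ezh2), 2 were lower (Dnmt3b and Tet1) and 5 did not pass the test (Dnmt1, Tet2, Tet3, Eed and Suz12). Calls rest on the quasi-likelihood test of edgeR, adjusted by Benjamini-Hochberg over the whole table, at a threshold of 0.05. By the same rule 32.8% of all genes tested were higher in AxR cells and 30.8% were lower, 63.5% in all. The members' 5 calls of 10 were thus no more frequent than calls over the whole table. P and AxR libraries did not overlap for the same 5 members, against 68.3% of all genes tested. One of these, Tet1, passed the low-count filter only through its P libraries, where it was higher. The median log2 fold change of the members was 0.068, beside 0.0058 over all genes tested, whose interquartile range was -0.33 to 0.38. The changed members did not share a direction within the methylation machinery, since one de novo enzyme rose and the other fell.

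**Figure D1:**
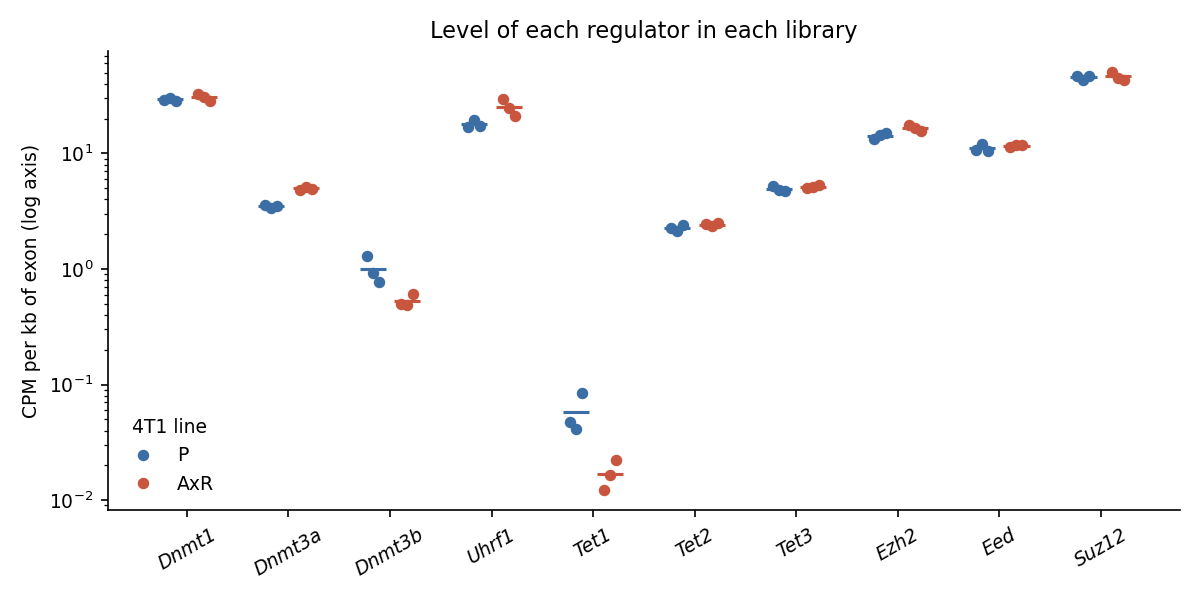
Level of each of the 10 regulators in each library, in CPM per kb of exon on a log axis, with P libraries in blue, AxR libraries in red and a short line at the mean of 3 libraries. Suz12 is the highest (45.4 in P, 46.3 in AxR) and Tet1 the lowest (0.0575 and 0.0170), and the lines separate at Dnmt3a, Dnmt3b, Uhrf1, Tet1 and Ezh2.

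Levels between genes were compared per kb of annotated exon, as CPM per kb. In P cells the order was Suz12 (45.4 ± 2.08, SD, n = 3), Dnmt1 (29.3 ± 0.660), Uhrf1 (17.8 ± 1.47), Ezh2 (14.3 ± 0.779), Eed (11.1 ± 0.913), Tet3 (4.92 ± 0.215), Dnmt3a (3.49 ± 0.116), Tet2 (2.25 ± 0.140), Dnmt3b (0.993 ± 0.266) and Tet1 (0.0575 ± 0.0234). No neighbours in that order overlapped between libraries. The same order held in AxR cells, but there Dnmt1 (28.6 to 32.8) and Uhrf1 (20.9 to 29.4) overlapped, and so did Tet3 (4.96 to 5.34) and Dnmt3a (4.85 to 5.12). The order depended in part on the length used. Divided by the longest annotated transcript, Ezh2 stood above Uhrf1 in P cells (34.2 against 21.2 CPM per kb), and in AxR cells Ezh2 (39.7) stood above Uhrf1 (29.6) and overlapped Dnmt1 (38.5). Dnmt3a (8.55) then stood above Tet3 (7.84) in AxR cells.

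Dnmt1, the maintenance methyltransferase (chromosome 9, 20907209 to 20959888), was measured at 216, 221 and 211 CPM in the P libraries and at 242, 225 and 211 CPM in the AxR libraries. The lines overlapped. AxR cells differed by a log2 fold change of 0.066 (SE 0.054, 95% interval -0.05 to 0.18, adjusted p = 0.308). The interval leaves room for a rise of up to 0.18 and a fall of up to -0.05 on the log2 scale. Tested genes of chromosome 9 had a median log2 fold change of -0.23, and the 25 tested genes on each side of Dnmt1 a median of -0.27, so the gene lay 0.34 above its neighbours.

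Dnmt3a (ENSMUSG00000020661, chromosome 12, 3806007 to 3914443), a de novo methyltransferase, had the smallest adjusted p among the members. It was measured at 59.6, 55.9 and 58.6 CPM in P and at 80.8, 85.2 and 82.5 CPM in AxR libraries. Every AxR library was above every P library. This was a log2 fold change of 0.51 (SE 0.055, 95% interval 0.40 to 0.63, adjusted p = 9.78e-07), a 1.43-fold rise from 58.0 ± 1.93 to 82.8 ± 2.23 CPM (SD, n = 3). The exact two-sided permutation test gave p = 0.1, the smallest that 3 against 3 libraries allow, here and for the other 4 members called. Neither chromosome 12 (median 0.00) nor the neighbours (median 0.09) moved by a like amount.

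Dnmt3b (ENSMUSG00000027478, chromosome 2, 153649450 to 153687730), the other de novo enzyme, moved the opposite way from a low level. It was measured at 6.56, 4.73 and 3.91 CPM in P and at 2.54, 2.49 and 3.07 CPM in AxR libraries, from 108, 82 and 60 counts against 40, 39 and 54. The lowest P library stood above the highest AxR library, though the P libraries ranged widely. The log2 fold change was -0.91 (SE 0.204, 95% interval -1.34 to -0.47, adjusted p = 0.00119). Its neighbours had a median of -0.30. Antisense transcripts at Dnmt3a and Dnmt3b held at most 2 counts in any library.

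Within a library, the ratio of Dnmt3a to Dnmt3b per kb of exon was 2.79, 3.62 and 4.60 in P cells and 9.76, 10.5 and 8.24 in AxR cells. The lines did not overlap, and the ratio was 2.63-fold higher in AxR cells (exact two-sided permutation test p = 0.1, adjusted p = 0.2 over 6 ratios). Of the summed per-kb level of the 3 methyltransferases, Dnmt1 made up 86.7% ± 0.906 in P and 84.7% ± 1.15 in AxR cells (SD, n = 3). The Dnmt3a share was 10.3% ± 0.468 in P and 13.8% ± 0.958 in AxR cells. The Dnmt3b share was 2.94% ± 0.748 and 1.47% ± 0.251. Dnmt3l, the catalytically inactive partner of the de novo enzymes, was at 0 in 5 libraries and at 0.0635 CPM in AxR replicate 1, under the floor of 3 counts.

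Uhrf1 (ENSMUSG00000001228, chromosome 17, 56303321 to 56323486), which recruits DNMT1 to replicated DNA, was measured at 71.6, 83.1 and 73.2 CPM in P and at 125, 105 and 88.8 CPM in AxR libraries. The lines did not overlap, but the 3 AxR libraries were spread over a range wider than the P libraries. The log2 fold change was 0.48 (SE 0.124, 95% interval 0.19 to 0.77, adjusted p = 0.0104), and its neighbours had a median of 0.27. The paralog Uhrf2 fell, from 183 ± 8.60 to 147 ± 1.34 CPM (SD, n = 3), a log2 fold change of -0.32 (SE 0.050, adjusted p = 5.64e-05). The per-kb ratio of Uhrf1 to Dnmt1 was 0.608 in P cells and 0.808 in AxR cells (geometric means) without overlap (exact permutation p = 0.1, adjusted p = 0.2).

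Among the TET enzymes, Tet1 was near the detection limit, and Tet2 and Tet3 stood per kb at the 27.9 and 43.5 percentile of all genes tested in P cells. Tet1 (ENSMUSG00000047146, chromosome 10, 62804570 to 62908996) had 12, 11 and 20 counts in P and 3, 4 and 6 counts in AxR libraries, or 0.729, 0.635 and 1.3 against 0.191, 0.255 and 0.341 CPM. A floor of 3 counts corresponded to between 0.171 and 0.196 CPM. The lines did not overlap, yet AxR replicate 1 stood at the floor. The log2 fold change was -1.70 (SE 0.452, 95% interval -2.67 to -0.74, adjusted p = 0.00398). Tet1 passed the low-count filter only through its P libraries, the line in which it was higher. Its test and its separation are therefore a description and not independent support for a fall. In P cells Tet1 made up 0.795% ± 0.321 of the summed per-kb level of the 3 TET genes, and in AxR cells 0.223% ± 0.0577 (SD, n = 3). At its P level per kb Tet1 ranked at the 1.02 percentile of all genes tested. In bulk RNA a smaller number of cells with Tet1 and less Tet1 RNA per cell cannot be told apart.

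Tet2 (chromosome 3) was measured at 38.1, 35.6 and 40.4 CPM in P and at 41.2, 39.6 and 41.8 CPM in AxR libraries, which overlapped. Its log2 fold change was 0.10 (SE 0.068, 95% interval -0.04 to 0.25, adjusted p = 0.190), whereas the tested genes around it had a median of 0.56. Tet3 (chromosome 6) was measured at 86.2, 80.7 and 79.5 CPM in P and at 82.9, 84.6 and 89.1 CPM in AxR libraries, with a log2 fold change of 0.06 (SE 0.056, 95% interval -0.06 to 0.18, adjusted p = 0.377). For neither gene did the interval reach the size seen for Dnmt3a. The ratio of Tet2 to Tet3 per kb was 0.458 in P and 0.473 in AxR cells, with overlap (exact permutation p = 0.6).

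Of the PRC2 core, Ezh2 rose and its obligate partners did not pass the test. Ezh2, the methyltransferase (ENSMUSG00000029687, chromosome 6, 47530139 to 47595341), was measured at 89.7, 96.1 and 100.0 CPM in P and at 118, 111 and 103 CPM in AxR libraries. The lines did not overlap, with a narrow gap between the highest P and the lowest AxR library. Its log2 fold change was 0.22 (SE 0.061, 95% interval 0.09 to 0.35, adjusted p = 0.00598), a 1.16-fold rise. Chromosome 6 (median 0.01) and its neighbours (median -0.02) did not share it.

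Eed, the subunit that binds the H3K27 mark (chromosome 7), was measured at 40.8, 46.3 and 39.8 CPM in P and at 43.8, 44.8 and 44.9 CPM in AxR libraries, with a log2 fold change of 0.07 (SE 0.069, 95% interval -0.08 to 0.22, adjusted p = 0.387). Suz12, the scaffold of the complex (chromosome 11), was measured at 232, 213 and 229 CPM in P and at 252, 221 and 214 CPM in AxR libraries, with a log2 fold change of 0.03 (SE 0.061, 95% interval -0.10 to 0.16, adjusted p = 0.719). Both overlapped between the lines, and the sign for Suz12 turned with 1 library left out (-0.0087 without P replicate 2, -0.042 without AxR replicate 1). The per-kb ratio of Suz12 to Ezh2 was 3.19 in P and 2.79 in AxR cells without overlap (exact permutation p = 0.1, adjusted p = 0.2). The ratio of Eed to Ezh2 (0.774 against 0.702, exact permutation p = 0.3) and that of Ezh2 to its paralog Ezh1 (3.08 against 2.82, exact permutation p = 0.4) overlapped. The exact permutation test of 3 against 3 libraries cannot go below p = 0.1 for any ratio. The ratios themselves depend on the length used, and with the longest transcript Suz12 to Ezh2 was 1.5 in P and 1.32 in AxR cells and Dnmt3a to Dnmt3b 5.22 and 13.7.

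**Figure D2:**
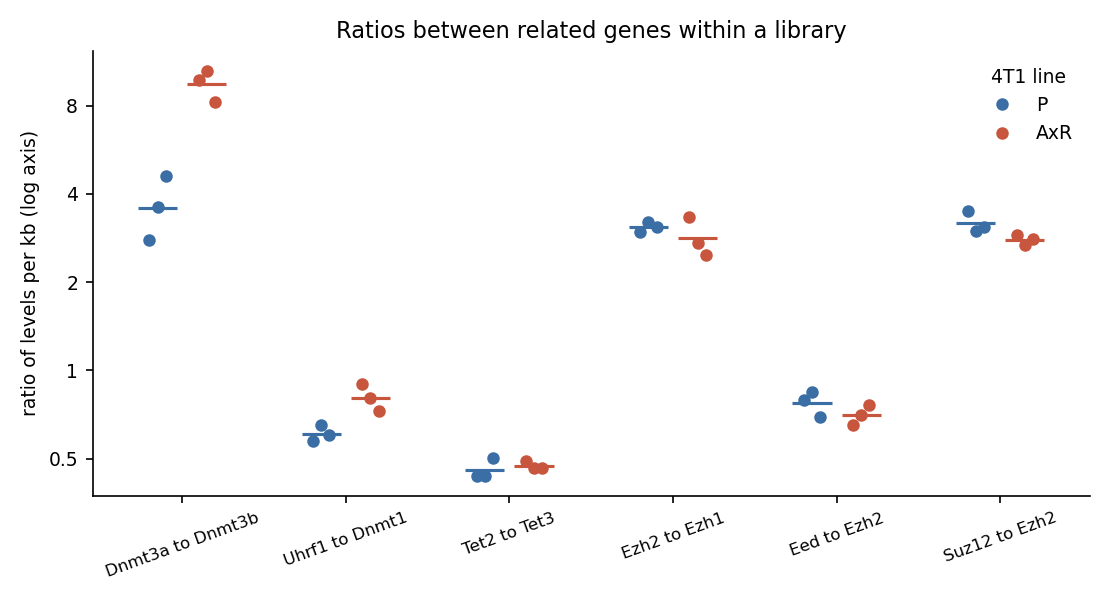
Ratios between related genes within each library, as CPM per kb of exon on a log axis, with P libraries in blue, AxR libraries in red and a short line at the geometric mean of 3 libraries. The ratio of Dnmt3a to Dnmt3b lies between 2.79 and 4.60 in P and between 8.24 and 10.5 in AxR libraries, while Tet2 to Tet3, Ezh2 to Ezh1 and Eed to Ezh2 overlap.

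**Figure D3:**
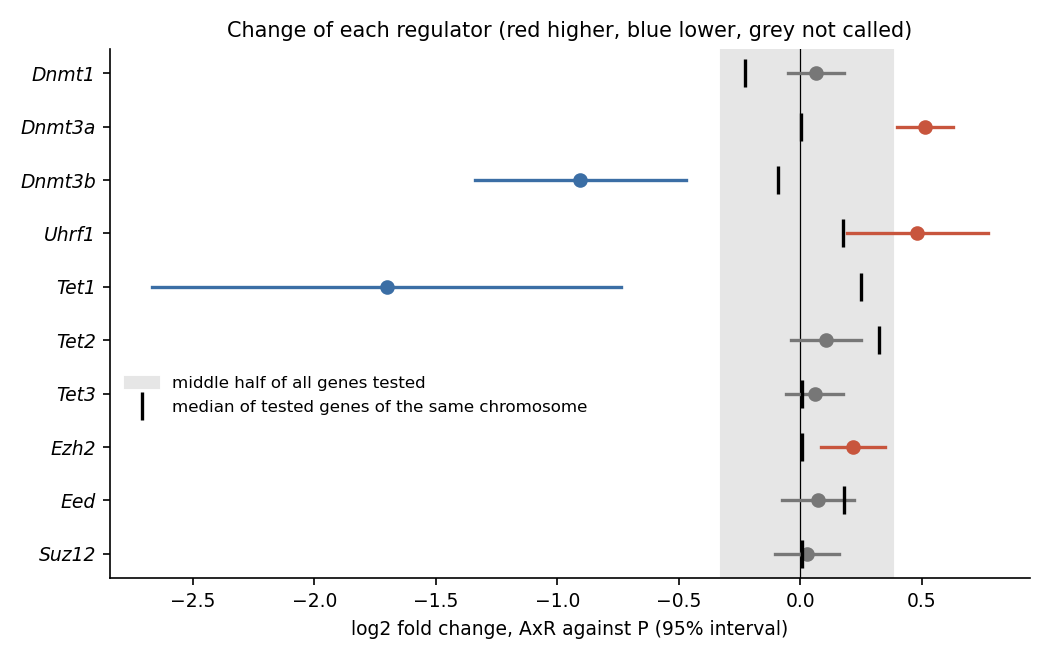
Log2 fold change of each regulator in AxR against P cells with its 95% interval, red for higher, blue for lower and grey for not called, beside a black tick at the median of the tested genes of the same chromosome and a grey band over the interquartile range of all genes tested (-0.33 to 0.38). The points of Dnmt3a and Uhrf1 lie right of the band and those of Dnmt3b and Tet1 left of it, while Ezh2 was called within the band.

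Partner genes of the methylation machinery were called in both directions. Of 24 listed, 22 were tested, 10 rose, 8 fell and 4 were not called, with a median log2 fold change of 0.0089. Calls made up 81.8% of those tested, against 63.5% of all genes tested. Dnmt3l and Dppa3 were not tested. The 3 highest were Mbd1 (0.77, SE 0.059, adjusted p = 2.72e-08), which binds methylated DNA, Zbtb33 (0.73, SE 0.071, adjusted p = 3.28e-07), which encodes the methyl-CpG binding protein Kaiso, and Hells (0.54, SE 0.096, adjusted p = 0.000611), a chromatin remodeler that opens DNA for methylation. Mbd1 and Zbtb33 lie among genes that also rose (neighbour medians of 0.38 and 0.50), and Hells does not (-0.16). Cdca7, the partner that recruits HELLS, went the other way, from 83.6 ± 0.730 to 51.7 ± 2.27 CPM (SD, n = 3), a log2 fold change of -0.69 (SE 0.055, adjusted p = 4.23e-08). Ahcy, which removes the inhibitory product of methyl transfer, was lower by a log2 fold change of -0.50 (SE 0.075, adjusted p = 3.16e-05), among genes with a median of -0.37.

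Zfp57 encodes a zinc finger protein that binds a methylated motif at imprinted regions and brings in TRIM28 and SETDB1. It was measured at 14.1, 13.9 and 11.5 CPM in P and at 2.16, 1.91 and 3.41 CPM in AxR libraries. All AxR libraries stood well below all P libraries. The log2 fold change was -2.38 (SE 0.175, 95% interval -2.76 to -2.01, adjusted p = 2.33e-08), further from 0 than for any member, while its neighbours had a median of 0.16. Its corepressors moved the other way, Trim28 by 0.44 (SE 0.052, adjusted p = 2.80e-06) and Setdb1 by 0.31 (SE 0.052, adjusted p = 9.05e-05), the latter among genes with a median of 0.27.

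Of 13 PRC2 partner genes, 12 were tested, of which 5 rose, 5 fell and 2 were not called, with a median log2 fold change of -0.11. The called share was 83.3%, against 63.5% over all genes tested. Ezhip, an inhibitor of the complex, had 0 counts in every library. The demethylases of the H3K27 mark moved in opposite directions. Kdm6a was measured at 21.9, 21.9 and 21.3 CPM in P and at 48.5, 47.9 and 44.5 CPM in AxR libraries (log2 fold change 1.11, SE 0.069, adjusted p = 2.30e-09), in a stretch of chromosome X whose tested genes had a median of 0.66. Kdm6b was measured at 66.5, 71.2 and 63.6 CPM in P and at 31.0, 32.1 and 37.3 CPM in AxR libraries (log2 fold change -1.0, SE 0.076, adjusted p = 2.26e-08), with a neighbour median of -0.19. Both separated the lines without overlap.

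The histone chaperone Rbbp4 (0.35, SE 0.051, adjusted p = 2.33e-05) and the alternative catalytic subunit Ezh1 (0.35, SE 0.075, adjusted p = 0.000857) were also higher. Accessory subunits, which steer PRC2 to chromatin, were called in both directions. Phf19 (-0.38, SE 0.076, adjusted p = 0.000501), Mtf2 (-0.30, SE 0.074, adjusted p = 0.00274) and Epop (-0.47, SE 0.138, adjusted p = 0.00747), which belong to the PRC2.1 form, fell. Jarid2 of the PRC2.2 form passed the test narrowly (0.29, SE 0.12, adjusted p = 0.0486) although AxR replicate 3 (10.6 CPM) lay below P replicate 1 (10.9 CPM). With TMM, library size only, DESeq2 or limma-voom, 4 in place of 5 PRC2 partners were higher, and likewise without P replicate 2, P replicate 3, AxR replicate 1 or AxR replicate 2. Aebp2 of the same form did not pass the test (-0.06, adjusted p = 0.350). Phf1, the remaining Polycomb-like subunit, did not pass it either (-0.16, adjusted p = 0.256).

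All 24 PRC1 genes were tested, and 7 rose, 8 fell and 9 were not called, with a median log2 fold change of -0.08. The called share was 62.5%, close to the 63.5% over all genes tested. Among the highest were Cbx8 (from 11.4 ± 0.829 to 22.9 ± 2.54 CPM, SD, n = 3) and Cbx2 (from 17.4 ± 1.54 to 24.7 ± 0.422 CPM), chromobox proteins that read the H3K27 mark. Their log2 fold changes were 1.00 (SE 0.099, adjusted p = 4.42e-07) and 0.50 (SE 0.081, adjusted p = 6.25e-05). Both genes lie on chromosome 11, Cbx2 at 119022962 to 119031270 and Cbx8 at 119036305 to 119040969, and the tested genes around them had a median of 0.31. The chromobox genes Cbx6 (0.12, adjusted p = 0.0586) and Cbx7 (0.18, adjusted p = 0.0660), which lie on chromosome 15, did not pass the test.

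The lowest PRC1 genes were Pcgf5 (-0.83, SE 0.071, adjusted p = 8.07e-08), a ring finger subunit of a variant complex, Kdm2b (-0.59, SE 0.054, adjusted p = 1.91e-07), which binds unmethylated CpG islands, and Rnf2 (-0.45, SE 0.086, adjusted p = 0.000707), the ubiquitin ligase. Rnf2 lay among genes with a median of -0.49 on chromosome 1, so its change was close to that of its neighbours. Pcgf5 (-0.15) and Kdm2b (-0.20) lay among genes that moved much less.

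**Figure D4:**
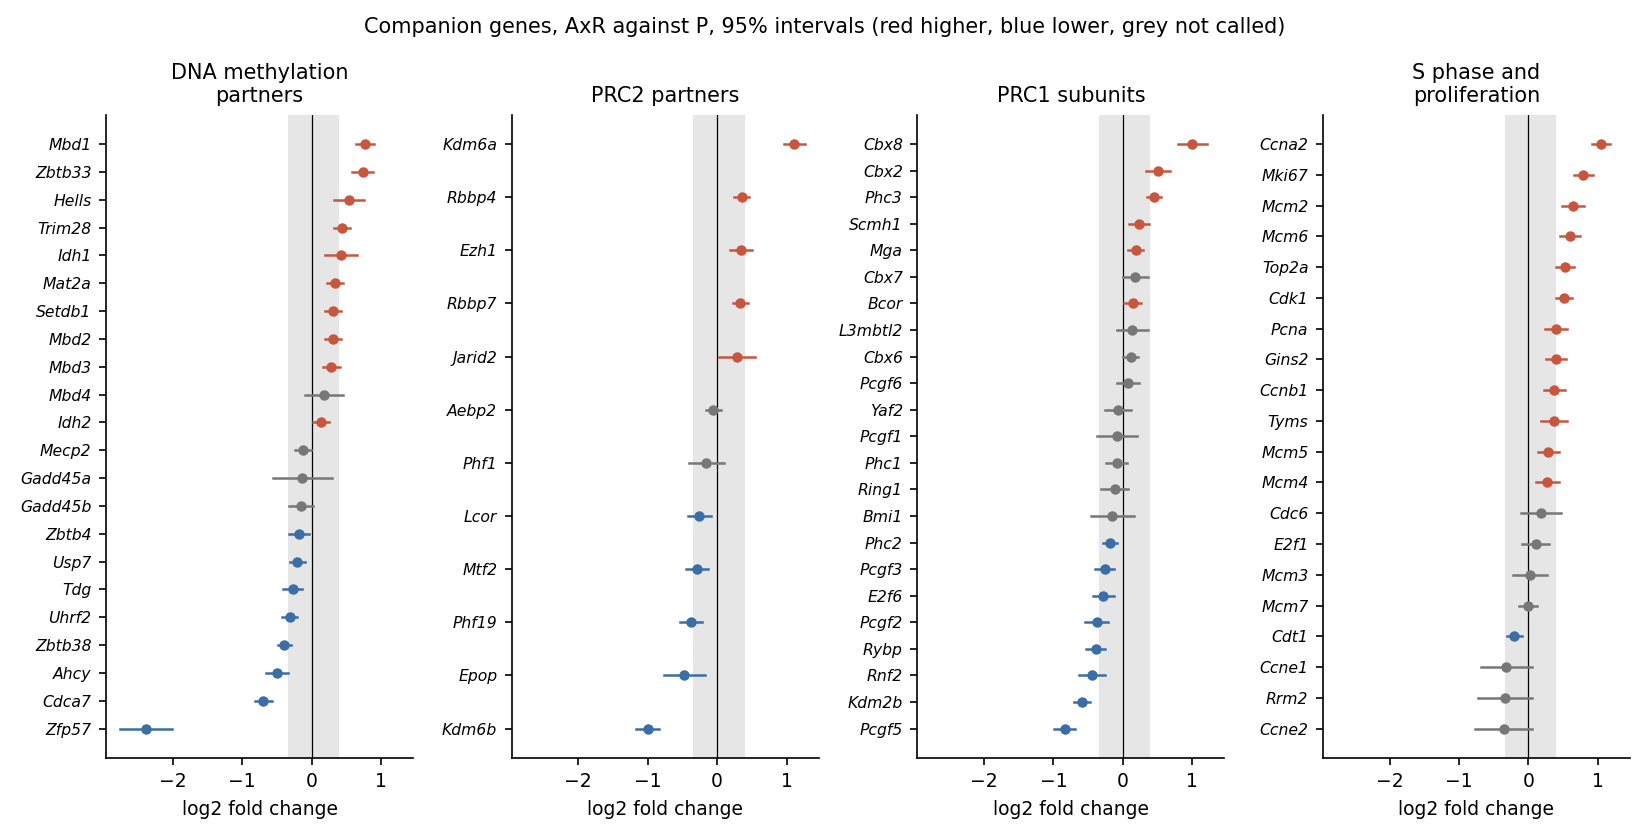
Log2 fold changes in AxR against P cells with 95% intervals for tested genes of 4 companion lists (1 PRC1 gene is not drawn), red for higher, blue for lower and grey for not called, beside a grey band over the interquartile range of all genes tested. The methylation, PRC2 and PRC1 lists run in both directions, from Zfp57 (-2.38) to Kdm6a (1.11), whereas the S phase list has 12 genes higher and 1 lower. Of all genes tested, 32.8% were higher and 30.8% lower.

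Uhrf1, Dnmt1 and Ezh2 are known to be transcribed mainly in dividing cells, so their levels are set beside a list of 20 S phase and proliferation genes. In AxR cells 12 of the 20 rose, 1 fell (Cdt1, -0.20, adjusted p = 0.00247) and 7 were not called, with a median log2 fold change of 0.33. Calls made up 65% of this list, close to the 63.5% of all genes tested. Of all genes tested, 32.8% were higher and 30.8% were lower. Ccna2 (1.05, SE 0.062, adjusted p = 1.84e-09), Mki67 (0.79, SE 0.064, adjusted p = 8.54e-08) and Mcm2 (0.64, SE 0.074, adjusted p = 2.84e-06) were the highest. Pcna rose by 0.40 (SE 0.071, adjusted p = 0.000201), and E2f1 did not pass the test (0.11, adjusted p = 0.320). The summed level of the list was 2466, 2708 and 2578 CPM in P and 4007, 3641 and 3421 CPM in AxR libraries. AxR replicate 1 was the highest and AxR replicate 3 the lowest of the AxR libraries in this sum, and the same order was seen for Uhrf1, Hells, Ezh2, Dnmt1 and Suz12. The order was reversed for Tet1, Tet3 and Eed, and Dnmt3a, Dnmt3b and Tet2 followed neither order. How many of all genes tested follow either order was not counted. AxR replicates 1 and 3 differed the most of all pairs within a line over the whole table (chi-square per degree of freedom 19.4). A shared order of 3 libraries therefore does not tie these genes to the S phase list. Among the P libraries the sum was highest in replicate 2, where Uhrf1 and Dnmt1 were highest too but Suz12 and Hells were lowest.

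Relative to the summed list, a comparison chosen after the values were seen, Uhrf1 differed by a log2 change of -0.04 with overlap (exact permutation p = 0.8) and Hells by 0.02 with overlap (exact permutation p = 0.9). Relative to the mean log2 level of the same genes, Uhrf1 stayed 0.21 higher and Hells 0.26 higher without overlap (exact permutation p = 0.1 for both). Ezh2 was lower by the first measure (-0.30, exact permutation p = 0.1) and overlapped by the second (-0.05, exact permutation p = 0.5). Dnmt1 was lower without overlap by both (-0.45 and -0.20, exact permutation p = 0.1), and so was Suz12 (-0.49 and -0.24, exact permutation p = 0.1). The list itself was higher in AxR cells by 0.51 (log2 of the sum) and 0.26 (mean log2). Neither Dnmt1 nor Suz12 was called on its own level, so these values mostly give the rise of the list. Dnmt3a overlapped by both (-0.0023, exact permutation p = 1, and 0.25, exact permutation p = 0.2). Dnmt3b (-1.29 and -1.04) and Tet1 (-1.35 and -1.10) stayed lower without overlap by both (exact permutation p = 0.1). The part of proliferation in the differences of Uhrf1 and Ezh2 was not tested beyond these values.

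**Figure D5:**
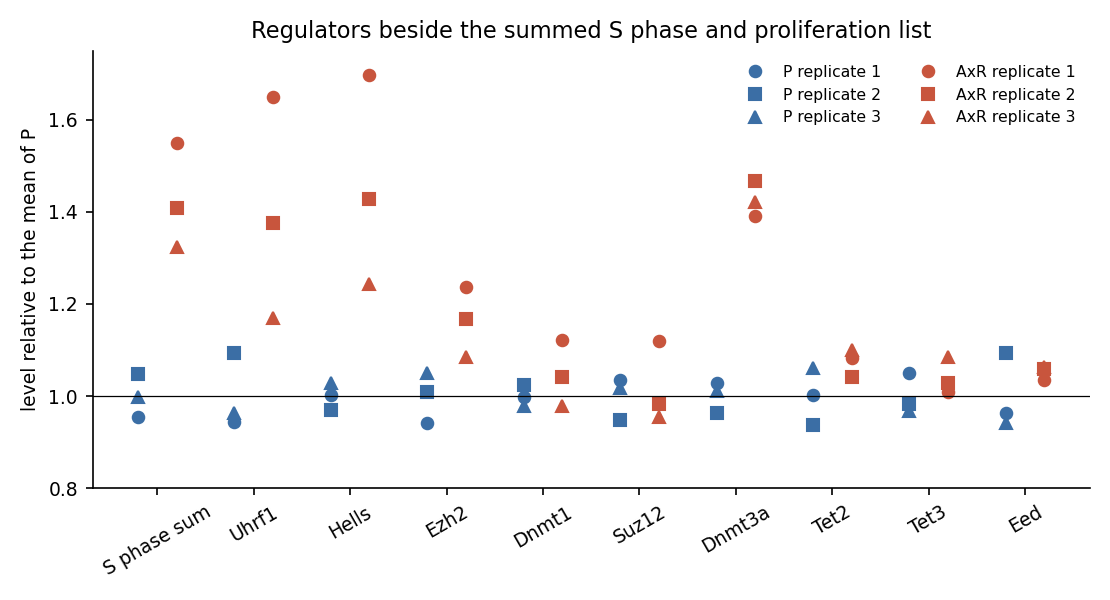
Summed CPM of the 20 S phase and proliferation genes (first column) and CPM of Hells and 8 regulators in each library, each divided by its mean in P, with P libraries in blue, AxR libraries in red and a marker shape for each replicate number. AxR replicate 1 is the highest AxR library in the S phase sum, Uhrf1, Hells, Ezh2, Dnmt1 and Suz12, and the lowest in Dnmt3a, Tet3 and Eed.

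Promoter windows were searched on both strands for TTCCCGC and TTTGGCG, 2 forms of the site bound by E2F factors of the cell cycle. TTCCCGC was in a window of Uhrf1 and in that of Suz12, and TTTGGCG in a window of Dnmt1 and in that of Ezh2. The Uhrf1 window with TTCCCGC was the first of 2 (12 CpG), whose stretch overlaps an annotated exon and is not shown. The second window, whose stretch is shown above, held neither run of letters. That makes 4 of the 10 members with either run of letters, against 12.75% of the 9424 tested genes with a window, counted per gene in the same way, and 5.99% of all 32851 RefSeq windows. The share was 37.5% in the S phase list, 30% among the methylation partners and 35.3% among the germline genes with a window. Among the partners, Hells and Cdca7, which moved in opposite directions, both had TTCCCGC. A match describes the letters of the window and not a bound site.

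Genes that lose their silencing when promoter methylation falls were looked at through a list of 18 germline genes. Of these, 9 had 0 counts in every library and 4 more had no library above 3 counts, which leaves their change undetectable at this depth. The 5 others included Rhox5, Sycp1 and Taf7l. Only 2 of the 18 were tested, Rhox5 and Sycp1, and they differed in sign. Rhox5, an X-linked homeobox gene, was measured at 0.729, 0.635 and 1.11 CPM in P and at 1.84, 2.81 and 1.93 CPM in AxR libraries, without overlap (log2 fold change 1.41, SE 0.300, adjusted p = 0.000742). Sycp1, a synaptonemal complex gene, had a log2 fold change of -0.38 (SE 0.213, adjusted p = 0.13). Taf7l lay between 0.346 and 0.456 CPM in P and between 0.446 and 0.826 CPM in AxR libraries and was not tested. Dazl, Ddx4 and Mael, which are commonly used to read out loss of methylation, were at 0 in all 6 libraries.

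As background to genes switched on or off, genes were counted that had at most 3 counts in every library of one line and at least 2 CPM in every library of the other. There were 16 such genes on in AxR cells alone and 38 off in AxR cells alone, and none was a member or a companion gene. All of them were among the 13550 genes tested. Such genes were so rare that the absence of members and companion genes says nothing about these lists. Of the genes switched off, 34 had a RefSeq window, and 22 of these (64.7%) had an observed to expected CpG ratio above 0.6 (median 0.780, 23 CpG in 300 bases). Of the genes switched on, only 10 had a window and 1 was above 0.6 (median 0.283, 6 CpG). Of the 9424 tested genes with a window, 78.5% were above 0.6 (median 0.802, 23 CpG). Of all 27025 RefSeq genes with a window, 38.3% were above 0.6 (median 0.415, 8 CpG). The share of the genes switched off thus lay between these 2 backgrounds, and that of the genes switched on lay below both. These genes were chosen by their readout, so the values are a description. DNA methylation and H3K27 methylation were not measured in these libraries.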

How the data were processed

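RNA of 3 P and 3 AxR samples was sequenced from stranded poly(A)-selected libraries. Per the labels and the study's methods, the authors checked reads with FastQC 0.11.5, aligned them with STAR 2.6.0a (GRCm38, GENCODE M16), and deposited expected counts per gene from RSEM 1.3.1, which shares reads that match several genes among them. Groups came from the sample labels. Expected counts were rounded, filtered with filterByExpr, scaled by upper quartile and tested with edgeR 4.0.16 (R 4.3.3) by its robust quasi-likelihood F test with line as the only term and Benjamini-Hochberg adjustment over 13550 genes (threshold 0.05). The method was tested on simulated data. CPM are edgeR's, scaled by the upper quartile factors. The standard error is the absolute log2 fold change divided by the square root of F. Exact two-sided permutation tests used log2 of CPM plus 0.5, or of the ratio. Symbols, positions and lengths came from GENCODE M21, which held 53360 of 53465 identifiers, and promoter windows from RefSeq. Floors of 3 counts cover counting error only.

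The members and gene lists were chosen with earlier results of these data known. Named companions are the 3 highest and 3 lowest called genes of each list, the paralogs Ezh1 and Uhrf2, the S phase genes Mki67, Pcna and E2f1, and the 3 germline genes with the highest means, except 1 PRC1 gene that is not reported here. Trim28, Setdb1, Mtf2, Jarid2, Aebp2, Phf1, Cbx6, Cbx7, Dnmt3l, Dppa3, Ezhip, Dazl, Ddx4 and Mael fall outside that rule and were picked with their values in view. Alternatives were TMM, library size only, DESeq2 1.42.0, voom of limma 3.58.1, no filter, at least 10 counts in every library, a replicate block, each library left out and an added log2 fold change threshold of 1.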

Additional observations from a re-analysis of the deposited data

How the results depend on the processing

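The 3 higher and 2 lower members kept their calls with TMM, library size only, DESeq2, limma-voom, no low-count filter, the replicate block and each library left out, with 1 exception: under at least 10 counts in every library Tet1 was not tested, which left 1 member lower. Over these alternatives the adjusted p reached at most 0.0370 for Uhrf1, 0.0334 for Tet1 and 0.0378 for Ezh2. With a library left out, log2 fold changes ranged from 0.49 to 0.54 for Dnmt3a, -1.05 to -0.67 for Dnmt3b, 0.35 to 0.60 for Uhrf1, -1.94 to -1.34 for Tet1 and 0.17 to 0.27 for Ezh2. Suz12, not called, reversed to -0.0087 without P replicate 2 and -0.042 without AxR replicate 1 (range -0.042 to 0.075 over the libraries left out). With a size of at least 1 (log2) also required, 1083 genes were higher and 640 lower, with 0 and 1 members, 0 and 1 methylation partners, 1 and 1 PRC2 partners, 2 and 0 PRC1 genes and 1 and 0 S phase genes. The number of S phase genes lower was 2 with library size only, limma-voom or no filter, and 1 to 3 with a library left out. Without the filter the median of the methylation partners was 0.13 and that of the germline genes -0.38, since untestable genes entered. With a library left out, the PRC1 median ranged from -0.092 to -0.011, the germline median from 0.52 to 0.82 and the germline genes lower from 0 to 1. In the main fit the germline median rests on only 2 tested genes of 18, at 1.41 (Rhox5) and -0.38 (Sycp1). It does not describe the germline list as a whole. Same-numbered replicates did not deviate together (correlations of -0.02, -0.01 and -0.02), so the numbers do not pair the samples. The replicate block gave 4304 genes higher and 4023 lower, with the same 3 and 2 members. Over all settings the median of all genes stayed between -0.02 and 0.02. The length used moves the ratios but cancels in their differences between the lines. Depth limits Tet1, Dnmt3b and the germline genes.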
